A study of Mus musculus with 24 samples.

Results

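The genes described here are 107 genes of the mouse genome that were nearly without reads in frozen organs and had reads in formalin-fixed, paraffin-embedded (FFPE) organs. They were selected on measured read sums in a table of 27179 genes. A member had at most 2 reads over 4 frozen libraries and at least 30 reads over 4 FFPE libraries. Genes with symbols starting Vmn1r, H2-, Krt or Cyp were not taken. Both limits were met by 134 genes, and the 27 left out for their symbol were all Vmn1r genes, which encode type 1 vomeronasal receptors. FFPE against frozen is therefore what chose the members, and that difference is described below with no test.

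The study sequenced chromatin precipitated with an antibody to histone H3 trimethylated at lysine 4 (H3K4m3). The groups were FFPE brain, heart, kidney and liver, fixed in formalin and embedded in paraffin, and flash frozen brain, heart, kidney and liver from mice. Nothing is stated of the strain, age, sex or genotype of the mice. The table has 1 column for each organ and preservation, called a library below, so there are 2 libraries per organ. The labels list 8 FFPE and 4 frozen H3K4m3 samples, and they leave unsaid whether an FFPE column holds 1 sample or more. FFPE tissue was deparaffinised and extracted with heat, whereas frozen cores were crosslinked with formaldehyde. Preservation, preparation and library kit cannot be told apart.

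H3K4m3 marks the start sites of active and poised genes, above all those with promoters rich in CG dinucleotides. Away from such promoters, a precipitated library also holds a low level of reads from the whole genome, and this background makes up most of what is counted at a silent gene. In a bulk organ, fewer cells with the mark and less mark per cell cannot be told apart. Reads that match several near-identical copies cannot be placed with certainty, and the treatment of such reads is not stated. The members include immune receptor segments, defensins, secretoglobins, predicted models and pseudogenes. Many of them belong to families that mice carry in long tandem arrays.

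Depth ran from 3388631 reads (heart) to 5275085 reads (kidney) in the FFPE libraries, against 1792394 reads (heart) to 2976029 reads (liver) in the frozen libraries. On the authors' scaled library sizes the FFPE libraries together were 2.06 times as large as the frozen libraries. Fold changes below are ratios of CPM (reads scaled to a common library size) on those sizes. Where no read was counted, up to 3 reads remain possible, which is between 0.537 CPM in FFPE kidney and 1.69 CPM in frozen heart. Intervals and limits of this kind take in counting error alone. Lists of 6 marker genes for each organ summed to the highest CPM in their own organ, in FFPE and in frozen libraries. The lead over the other organs was smaller in FFPE for each list. Liver markers summed to 341 CPM in FFPE liver, against 61.25 to 79.6 CPM in the other FFPE organs. In frozen liver they summed to 955 CPM, against 38.9 to 43.3 CPM in the other frozen organs.

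The sequences shown are those that members share with one another, chosen because they show how alike the copied loci are. Each run below is the 250 bases before the annotated start, in the direction of transcription, from RefSeq, build GRCm38.p6, with CG pairs in capitals. The first is shared without a difference by Gm10670 (chr7:20474926-20475175, minus strand) and Gm10665 (chr7:22464076-22464325, minus strand). The second is shared in the same way by Gm10668 (chr7:20730625-20730874, minus strand) and Gm4567 (chr7:22719711-22719960, minus strand). The third is shared by the Y models Gm21672 (chrY:70197534-70197783, minus strand) and Gm21180 (chrY:77074729-77074978, minus strand). The fourth is shared by the alpha-defensin genes Defa42 (chr8:21456518-21456767, minus strand) and Defa43 (chr8:21594466-21594715, minus strand).
Gm10670 and Gm10665: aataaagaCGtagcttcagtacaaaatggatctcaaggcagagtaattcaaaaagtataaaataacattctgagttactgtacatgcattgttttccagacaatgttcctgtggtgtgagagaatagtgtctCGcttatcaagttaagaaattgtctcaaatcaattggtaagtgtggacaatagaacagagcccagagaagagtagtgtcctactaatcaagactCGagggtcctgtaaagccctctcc
Gm10668 and Gm4567: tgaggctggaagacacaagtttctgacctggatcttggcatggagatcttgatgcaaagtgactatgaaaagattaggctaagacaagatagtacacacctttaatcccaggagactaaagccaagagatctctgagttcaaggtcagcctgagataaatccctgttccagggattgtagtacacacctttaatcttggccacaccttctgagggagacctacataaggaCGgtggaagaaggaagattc
Gm21672 and Gm21180: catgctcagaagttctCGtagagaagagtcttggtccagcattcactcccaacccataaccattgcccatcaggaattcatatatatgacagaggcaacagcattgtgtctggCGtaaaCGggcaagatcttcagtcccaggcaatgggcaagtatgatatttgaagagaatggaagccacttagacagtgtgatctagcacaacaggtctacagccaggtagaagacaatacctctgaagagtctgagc
Defa42 and Defa43: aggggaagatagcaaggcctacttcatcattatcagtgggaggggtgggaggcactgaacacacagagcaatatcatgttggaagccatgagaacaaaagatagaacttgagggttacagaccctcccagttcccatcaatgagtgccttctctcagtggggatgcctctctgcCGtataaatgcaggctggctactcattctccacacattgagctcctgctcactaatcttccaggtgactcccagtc

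These 4 promoters held 3, 1, 3 and 1 CG pairs in their 250 bases. Some other members had promoters that were alike but not identical. Defa20 (chr8:21509008-21509257, plus strand) and Defa21 (chr8:21025295-21025544, plus strand) differed at 5 of 250 bases, which are the capitals in the pair below.
Defa20: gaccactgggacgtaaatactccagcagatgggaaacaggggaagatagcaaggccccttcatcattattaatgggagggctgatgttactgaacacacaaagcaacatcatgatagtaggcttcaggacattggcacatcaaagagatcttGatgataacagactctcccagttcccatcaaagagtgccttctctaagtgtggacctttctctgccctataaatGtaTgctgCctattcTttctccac
Defa21: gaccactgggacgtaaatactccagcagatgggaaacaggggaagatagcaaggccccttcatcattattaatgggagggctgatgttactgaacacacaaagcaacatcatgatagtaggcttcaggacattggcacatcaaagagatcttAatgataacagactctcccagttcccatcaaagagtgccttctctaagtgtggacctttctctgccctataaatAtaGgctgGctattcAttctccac

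All 107 members together had 5548 reads in the FFPE libraries and 153 in the frozen libraries. By library they had 1750, 790, 1756 and 1252 reads in FFPE brain, heart, kidney and liver, against 58, 30, 31 and 34 reads in frozen brain, heart, kidney and liver. No reads at all were found in the frozen libraries for 14 members, 1 read for 33 and 2 reads for 60. The FFPE sums lay between 30 and 273 reads with a median of 45. They were under 40 for 43 members, and at least 100 for 5. Of all genes in the table, 5.63% had fewer FFPE reads than the lowest member, so members sit at the low end of FFPE libraries as well. For members with 0 frozen reads the FFPE level was at least 5.50-fold to at least 21.7-fold higher, taking 3 reads over the frozen libraries as the limit. For members with 1 or 2 frozen reads the ratio lay between 7.29 and 66.3 with a median of 14.6. The limits of the choice set how low these ratios can be, and they also set apart the FFPE and frozen libraries of the members below, so both are descriptions.

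**Figure D1:**
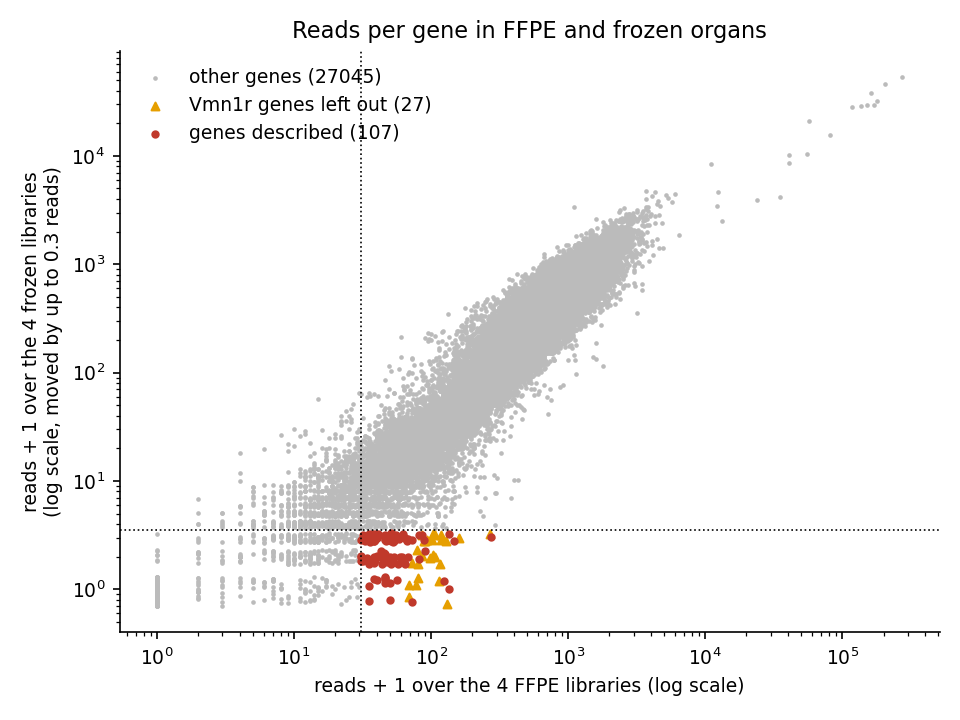
Reads per gene summed over the 4 FFPE libraries (horizontal) and the 4 frozen libraries (vertical), both plus 1 and on log scales, with points moved vertically by up to 0.3 reads. The 107 genes described (circles) and the 27 Vmn1r genes left out (triangles) lie right of the line at 30 FFPE reads and below the line at 2 frozen reads, and the other 27045 genes are grey.

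Low frozen sums became rarer with FFPE reads. Of 516 genes with 30 to 39 FFPE reads, 8.33% had at most 2 frozen reads, and the median frozen sum was 9. Of 1056 genes with 40 to 59 FFPE reads it was 3.88%, with a median of 15. Of 2243 genes with 60 to 99 FFPE reads it was 1.43%, with a median of 21.  The limits cut through this slope rather than through a gap. At the limit of 2 frozen reads the highest members inside were Gm4567, Gm10668 and Gm10670, with 273, 147 and 135 FFPE reads. Just outside stood 64 genes with 3 frozen reads, led by Skint4 with 291 FFPE reads, Gm13213 with 119 and Gm5890 with 105. At the other limit 4 members had exactly 30 FFPE reads, among them Mir449b, Mir5104 and Igkv4-51. Cstdc3 and Scgb1b12 missed it with 29 FFPE reads, against 0 and 1 frozen reads.

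Among the 65 members with a position in RefSeq were 29 protein-coding genes, 18 variable segments of antigen receptors, 13 pseudogenes (2 of them transcribed), 3 microRNA genes and 2 small nucleolar RNA genes. The other 42 could not be matched, and 33 of these have no symbol in the table. Unmatched members had between 31 and 89 FFPE reads, with the same median of 45. As shares of their kind, members made up 4.81% of 374 variable segments, 2.52% of 436 untranscribed pseudogenes and 2.21% of 1904 unmatched genes. They made up 0.138% of 20983 protein-coding genes, against 0.394% of the whole table. None of 2077 lncRNA genes was a member. Members were short, with a median genomic span of 945 bases, against 14492 bases over all 25275 placed genes. Spans under 1200 bases were found for 67.7% of the placed members and for 13.6% of all placed genes. Reads per gene depend on span: across all placed genes, which share libraries and are not independent replicates, Spearman's rho between span and FFPE reads was 0.533. Among spans of 400 to 1200 bases, the 36 members had a median of 78.1 FFPE reads per kb of span. The 2310 other genes of such spans had a median of 81.1. The choice set a lowest FFPE sum for the members and none for the other genes, whose FFPE sums went down to 0. In reads per gene the medians were 43.5 for these members and 71 for the other genes. Because of that limit, the medians per kb cannot show whether members and other genes were alike.

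The 3 highest FFPE sums belonged to 2 stretches of chromosome 7 that hold Vmn1r genes, and 4 members lay in them. The vomeronasal type 1 receptors are pheromone receptors of sensory neurons in the vomeronasal organ. Gm4567, a predicted gene of 6113 bases, had 69, 46, 63 and 95 reads in FFPE brain, heart, kidney and liver, against 0, 1, 0 and 1 in the frozen libraries in the same order of organs. Its lowest FFPE library had 46 reads and its highest frozen library 1, in keeping with the choice, and the ratio was 66.3 (95% exact interval 18.2 to 550). Its copy Gm10668, also of 6113 bases, had 39, 25, 33 and 50 reads in FFPE brain, heart, kidney and liver, against 0, 0, 0 and 2 in the frozen organs. FFPE liver was the highest library for both, and the ratio for Gm10668 was 35.7 (9.71 to 298).

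Gm10670 and Gm10665 are models of 966 bases, and RefSeq lists Vmn1r102 and Vmn1r150 as their synonyms, so they are vomeronasal receptor genes that the symbol filter did not catch. Gm10670 had 43, 37, 26 and 29 reads in FFPE brain, heart, kidney and liver, against 2, 0, 0 and 0 in the frozen organs. Gm10665 had 42, 23, 38 and 20 reads in the FFPE organs, against 0 in each frozen organ. The ratio was 32.8 (8.90 to 274) for Gm10670 and at least 19.9 for Gm10665. The choice, which capped the frozen sum at 2 reads, leaves no overlap between FFPE and frozen libraries at such FFPE sums.

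The 2 stretches, chr7:20473960-20730624 and chr7:22463110-22719710, matched in 8 pairs of genes. Each of the 8 genes of the first had a partner among the 9 genes of the second, displaced by 1989086 to 1989150 bases. The second thus held a gene without a partner. Partners had equal spans. In both stretches together there were 17 genes, of which 4 were members, 12 were Vmn1r genes and 5 of these Vmn1r genes met both limits. FFPE sums of the 17 genes ran from 84 to 273 and frozen sums from 0 to 10, so the genes between the members were low in frozen libraries as well. Vmn1r103 and Vmn1r151, partners in the second place, had 118 and 113 FFPE reads, against 2 and 0 frozen reads. Vmn1r111 and Vmn1r257, partners in the seventh place, had 84 and 94 FFPE reads, against 10 and 3 frozen reads. Of these pairs, sequences are shown above for the promoters of the 4 members alone. Where partners are near-identical, their reads cannot be assigned with certainty and their values are not independent.

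**Figure D2:**
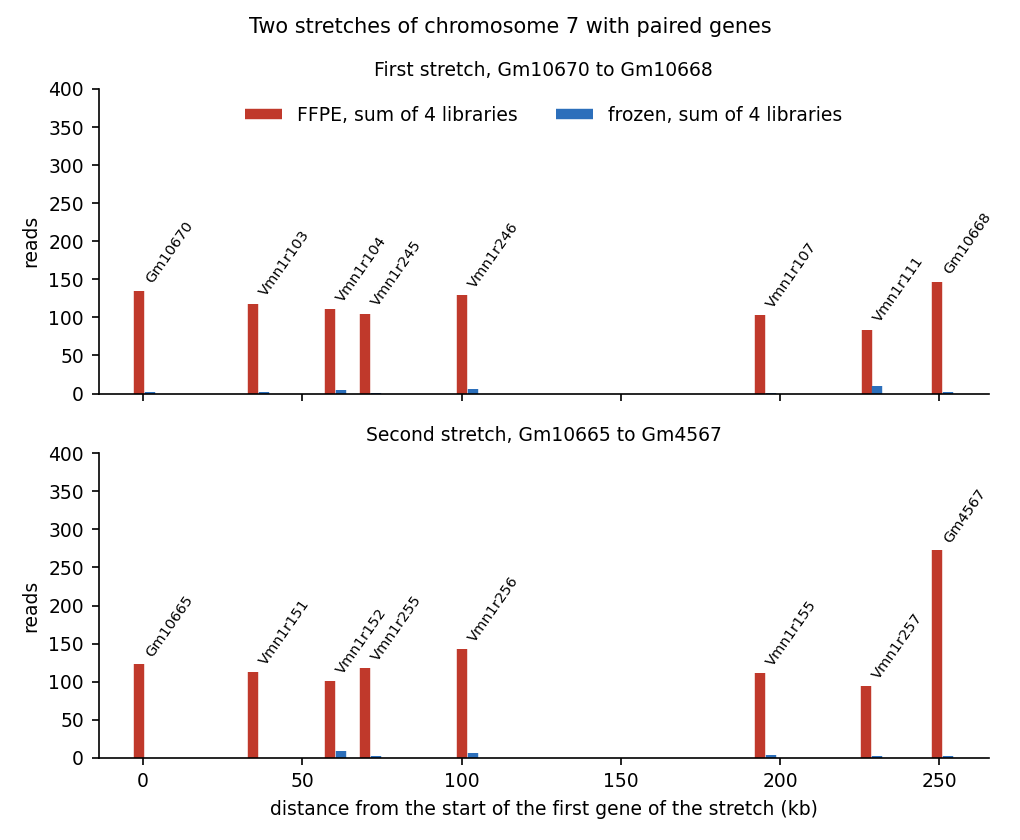
Reads summed over 4 FFPE libraries (left bar) and 4 frozen libraries (right bar) for the 8 paired genes of each stretch of chromosome 7, by distance in kb from the start of the first gene. FFPE sums run from 84 to 273 and frozen sums from 0 to 10, at the same 8 distances in both stretches.

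Gm4541, annotated as a pseudogene related to Nlrp4e, lay between these stretches. Nlrp4e belongs to the NLR family, several of whose members act in oocytes. Gm4541 had 23, 13, 19 and 26 reads in FFPE brain, heart, kidney and liver, against 2, 0, 0 and 0 in the frozen organs. Over all 232 Vmn1r genes of the table, the median was 86 FFPE reads and 18 frozen reads, and 30 had at most 2 frozen reads. Summed over the family, the FFPE level was 2.50 times the frozen level, against 1.64 for 1126 olfactory receptor genes and 1.72 for 127 vomeronasal type 2 receptor genes. Only 1 olfactory receptor gene was a member. Olfr486 had 21, 3, 16 and 9 reads in FFPE brain, heart, kidney and liver, against 0 in each frozen organ.

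Alpha-defensins, antimicrobial peptides that Paneth cells of the small intestine secrete, were a further group. Of 28 Defa genes 7 were members, which is 25% of the family. All 7 lay in 568.92 kb of chromosome 8, chr8:21025545-21594465, a span that held 23 genes in all. Defa42 had 25, 6, 18 and 9 reads in FFPE brain, heart, kidney and liver, against 1, 0, 0 and 0 in the frozen organs. Defa33 had 15, 5, 19 and 13 reads in the FFPE organs, against 1, 0, 0 and 0. Defa32 had 9, 2, 16 and 12 reads in the FFPE organs, against none in the frozen organs. In each of these genes FFPE heart was the lowest FFPE library, and no frozen library exceeded it. The other members, Defa20, Defa21, Defa36 and Defa43, had 30 to 34 FFPE reads, against 1 or 2 frozen reads.

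The 7 Defa members had a median of 34 FFPE reads, against 1 frozen read, and the 21 other Defa genes had 37 FFPE reads, against 7 frozen reads. On the frozen side, where the selection divided the family, the non-members ran from 0 to 24 reads. Defa2 had 10 FFPE reads and 0 frozen reads and so missed the FFPE limit. Defa37 had 29 FFPE reads and 8 frozen reads. Summed over all 28 Defa genes, members included, the FFPE level was 2.63 times the frozen level. Over the genes that were not members it was 2.03, a value that the removal of members lowers. Defb46, the single beta-defensin among the members, had 11, 10, 7 and 11 reads in FFPE brain, heart, kidney and liver, against 2, 0, 0 and 0 in the frozen organs.

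Antigen receptor segments made up 18 of the members. Variable segments are joined to other segments by DNA recombination in developing lymphocytes, and in other cells they lie unrearranged in long arrays. The members were 8 of 116 Trav segments of the T cell receptor alpha chain, 7 of 103 Igkv segments of the immunoglobulin kappa chain, 2 of 7 Trgv segments and 1 of 120 Ighv segments. Together the 18 had 206, 94, 250 and 172 reads in FFPE brain, heart, kidney and liver, against 25 reads in all frozen libraries. Their FFPE sums ran from 30 to 53. The members had a median of 39 FFPE reads and 1 frozen read, and the other 356 V segments had 33 FFPE reads and 9 frozen reads. The choice bounded both medians of the members, whereas the other V segments ran from 4 to 91 FFPE reads.

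The Trav members formed the largest chain of neighbours, 8 members within 976.78 kb of chromosome 14, chr14:52899972-53876752, among 91 genes. The mouse Trav array carries repeated blocks whose segments bear the letters d and n. Such names belonged to 6 of 8 Trav members and to 63 of 116 Trav segments (54.3%). Trav14n-2 had 17, 5, 14 and 11 reads in FFPE brain, heart, kidney and liver, against 1, 0, 0 and 0 in the frozen organs. Trav4d-3 had 17, 2, 14 and 10 reads in the FFPE organs, against 0, 1, 0 and 0. FFPE heart was the lowest FFPE library of both, and each had a single frozen read. The 83 genes between the Trav members that were not members had a median of 39 FFPE reads and 9 frozen reads, and 19 of them had at most 5 frozen reads.

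In the kappa locus of chromosome 6, 4 Igkv4 members lay within 455.085 kb, chr6:69226854-69681939. Igkv4-58 had 11, 2, 22 and 14 reads in FFPE brain, heart, kidney and liver, against 0, 0, 0 and 2 in the frozen organs. Here FFPE heart and frozen liver had the same 2 reads, so the groups met. Igkv6-17, outside that chain, had the highest sum of the kappa members, with 18, 10, 16 and 9 reads in the FFPE organs, against 0, 1, 0 and 0. Igkv4-51, at the FFPE limit, had 18, 0, 3 and 9 reads in the FFPE organs, against 0, 0, 0 and 1, and was the only member with no read in an FFPE library. Trgv3 and Trgv4, segments of the T cell receptor gamma chain on chromosome 13, had 37 FFPE reads each, of which FFPE kidney held 18 and 20. Their frozen sums were 1 and 2.

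A list of 6 immune cell markers summed to 156 to 189 CPM in the FFPE libraries, against 98.8 to 151 CPM in the frozen libraries. All 6 were measured and none was at 0 in any library. A list of 6 genes of the blood vessel lining summed to 164 to 610 CPM in FFPE libraries, against 121 to 558 CPM in frozen libraries, none at 0. The part of these cells in the reads over receptor segments was not tested.

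**Figure D3:**
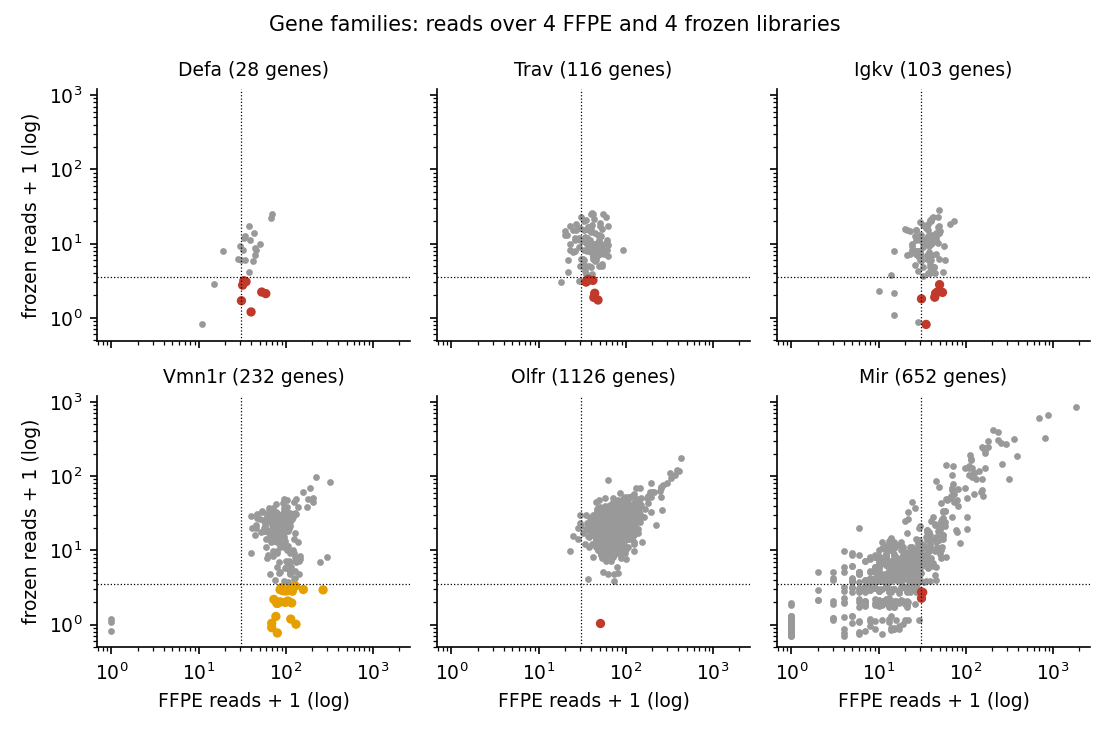
Each point is a gene of the named family, by reads + 1 summed over 4 FFPE libraries (horizontal, log scale) and 4 frozen libraries (vertical, log scale, moved by up to 0.3 reads). Members are red, left-out Vmn1r genes orange and the other genes grey; members lie at the lower edge of clouds that reach up to higher frozen sums, and the single Olfr member lies below all other genes of its family.

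Other members came from families of secreted or structural proteins. Scgb2b11 and Scgb2b15 encode secretoglobins of the androgen-binding protein group found in mouse saliva and tears. Scgb2b11 had 21, 2, 17 and 5 reads in FFPE brain, heart, kidney and liver, against 0 in each frozen organ. Scgb2b15 had 16, 5, 11 and 7 reads in the FFPE organs, against 0, 0, 1 and 1. The other 15 Scgb2b genes had a median of 50 FFPE reads and 9 frozen reads. Esp24, an exocrine gland secreted peptide, had 52 FFPE reads and 2 frozen reads. Lce3a, of the late cornified envelope of skin, had 18, 13, 28 and 5 reads in FFPE brain, heart, kidney and liver, against 2, 0, 0 and 0. Ang6 and Ear4, of the ribonuclease A family, had 50 and 32 FFPE reads, with 2 frozen reads each.

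Iapp encodes the amylin hormone of pancreatic beta cells. Of the 25 members with a promoter sequence, it is among the few without a near copy (defined below). It had 5, 13, 17 and 10 reads in FFPE brain, heart, kidney and liver, against 1, 0, 1 and 0 in the frozen organs. FFPE brain was its lowest FFPE library, and the frozen libraries lay below it.

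Frg2f2 and Frg2f10, pseudogenes of the FSHD region gene 2 family, lay within 7.805 kb of chromosome 14. Frg2f2 had 67 FFPE reads and 1 frozen read, and Frg2f10 had 48 and 2. The 11 other Frg2f genes had a median of 61 FFPE reads and 6 frozen reads. Gm7167, a pseudogene of 1199 bases on chromosome 15, had the highest FFPE sum of the members with no frozen reads. It had 40, 17, 50 and 27 reads in FFPE brain, heart, kidney and liver, a level at least 21.7-fold higher than the frozen limit. Gm21404 and Gm10573, models of 12944 and 12942 bases that lie within 405.929 kb of chromosome 4, had 45 FFPE reads each, against no frozen read.

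On the Y chromosome 5 of 110 genes were members (4.55%). All 5 were predicted models of families with many copies on that chromosome. Gm21672 had 24, 9, 22 and 16 reads in FFPE brain, heart, kidney and liver, against 0 in each frozen organ. Gm21180 had 28, 3, 26 and 9 reads in the FFPE organs, against 0, 2, 0 and 0. These are 2 of 11 Y genes with a span of 684 bases. The 11 ran from 26 to 71 FFPE reads, median 39, against 0 to 8 frozen reads, median 6. Gm20929 had 28, 10, 31 and 19 reads in FFPE brain, heart, kidney and liver, against 0, 0, 0 and 2. Gm20903 had 28, 9, 32 and 12 reads in the FFPE organs, against 1, 0, 0 and 0. They are 2 of 18 Y models with spans of 23000 to 27000 bases, which had a median of 68 FFPE reads, against 5.5 frozen reads. The 4 single-copy genes of the Y chromosome, Kdm5d, Uty, Ddx3y and Eif2s3y, had 40 to 237 reads in each FFPE library, against 40 to 228 reads in each frozen library, so the chromosome itself was represented in all libraries.

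On the X chromosome 5 of 1169 genes were members (0.428%), close to the 0.394% of the whole table. They had 76, 14, 79 and 33 reads in FFPE brain, heart, kidney and liver, against 9 frozen reads in all. Cldn34c2, a claudin 34 gene, and Gm5945 lay in the same 468.07 kb and had 33 FFPE reads each. Spin2e, of the spindlin family of histone readers, had 36.

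Small RNA genes were the members with the shortest spans. Members were 3 of 652 Mir genes (0.460%) and 2 of 119 Snor genes (1.68%), against 0.394% of the whole table. MicroRNA genes encode hairpins cut to short RNAs that repress messenger RNAs, and small nucleolar RNAs guide changes to ribosomal RNA. Snord11, of 63 bases, had 1, 2, 13 and 18 reads in FFPE brain, heart, kidney and liver, against 0 in each frozen organ. Snora41 had 13, 12, 17 and 8 reads in the FFPE organs, against 1, 0, 0 and 1. Mir449b had 3, 2, 12 and 13 reads in the FFPE organs, against 0, 1, 0 and 0. Mir143, known from smooth muscle, had 7, 5, 12 and 7 reads, against 0, 1, 0 and 1. Mir5104 had 3, 4, 8 and 15 reads in the FFPE organs, against 2, 0, 0 and 0. Its mature RNA is shown with its seed, bases 2 to 8, in capitals, from RefSeq (build GRCm38.p6, chr10:7836441-7836464, plus strand).
mmu-miR-5104: cUGUGCUAgugagguggcucagca

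The 5 small RNA members summed to 5.12, 7.66, 11.1 and 14.2 CPM in FFPE brain, heart, kidney and liver. Those sums rest on 27, 25, 62 and 61 reads, with 1 library per organ, so the order of brain and heart is not established. The 7 Defa members summed to 17.1, 7.66, 16.6 and 15.9 CPM in the same order of organs. Summed over 652 Mir genes the FFPE level was 0.798 times the frozen level, and over 119 Snor genes it was 0.653 times. It was 1.69 times over all 374 variable segments, against 0.879 over the whole table.

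**Figure D4:**
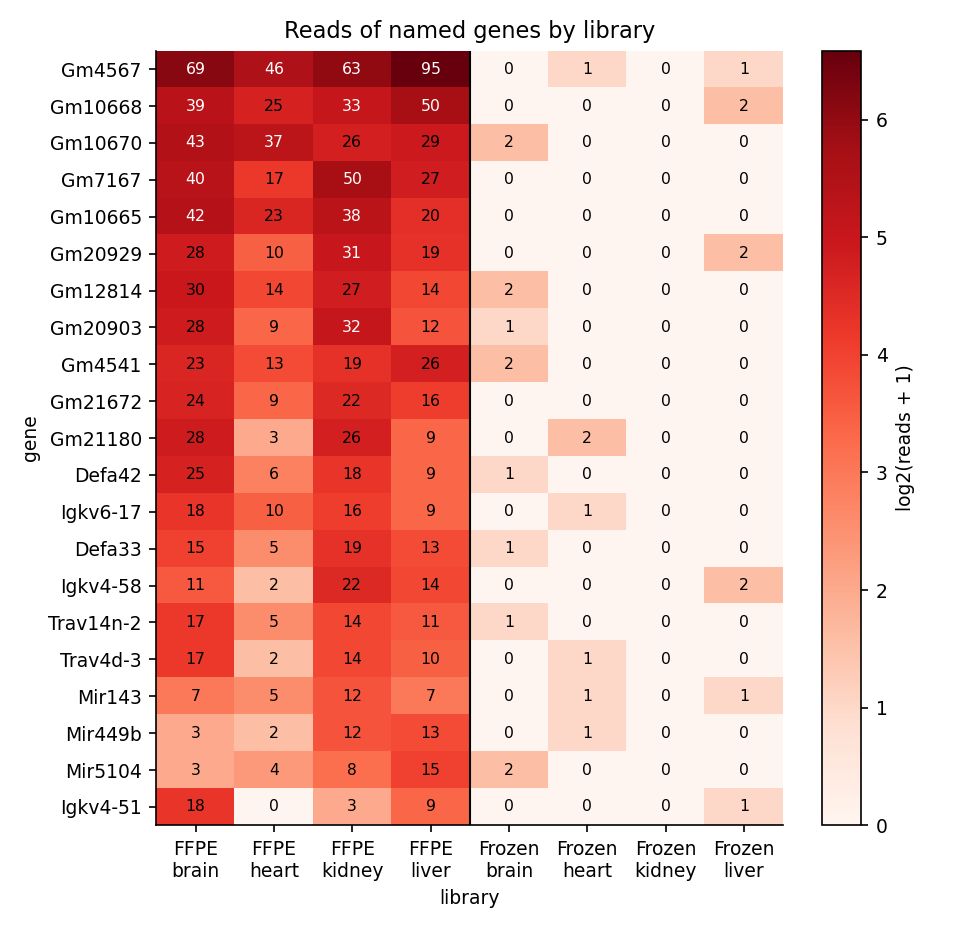
Reads of 21 named members in each library, FFPE organs left and frozen organs right, with the colour showing log2 of reads + 1. Reads run from 0 to 95 in the FFPE libraries and from 0 to 2 in the frozen libraries.

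Many members were neighbours, and 33 of the 65 with a position (50.8%) lay within 500 kb of another member, in 10 clusters, of which 3 held 3 members or more. No such share was computed for other genes of the same arrays, so there is no background for it. In the Trav span 83 of 91 genes were not members, and in the Defa span 16 of 23. The 112 flanking genes on both sides of the members, which did not meet both limits, had a median of 53.5 FFPE reads and 11 frozen reads, and 23.2% had at most 5 frozen reads, against 5.20% of all genes. All placed genes had a median of 458 FFPE reads and 222 frozen reads, so the flanking genes were low in both. Genes with 40 to 59 FFPE reads had a median of 15 frozen reads, which is closer to the flanking genes. At least 100 frozen reads were found for 16 of the flanking genes, so some members lay next to genes with ample reads in frozen organs.

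Promoter sequences were used as a measure that played no part in the choice. RefSeq gave 300 bases around the start (250 before and 50 after) for 25 members, all protein-coding. A near copy was defined as another gene's promoter, at a locus that did not overlap, with at least 90% identity over at least 80% of the bases. It was found for 20 of 25 members (80%), against 1313 of 18458 genes (7.11%). Among the 5450 genes that did not meet both limits and had FFPE sums in the range of the members it was 17.8%, and among 1055 olfactory and vomeronasal type 2 receptor genes 15.1%. The shared range, 30 to 273 FFPE reads, does not match the genes for level, since the median member had 45. With or without a promoter, the other genes of that range had a median of 33 reads in FFPE brain, against 14 for members. No test was made of these shares, since members of 1 family are not independent. Most of the 25 members belong to a few families, so the number of independent loci is smaller.

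The promoter of Gm21672 and Gm21180 had 100 near copies in RefSeq, of which 10 are in the table. Gm20903 had 24 and Gm20910 had 14, and the closest match of each was on the Y chromosome. Scgb2b15 had 10 and Scgb2b11 had 9. Defa20, Defa21, Defa32 and Defa36 had 8 each, and Gm10665 and Gm10670 had 8 each, 7 of them Vmn1r genes. Ang6 had 1 copy, Ang5, with 100% identity. Ang5 had 59 FFPE reads and 16 frozen reads, so an identical promoter did not always go with few frozen reads. The 52 near copies of members that are in the table and did not meet both limits had a median of 38 FFPE reads (10 to 109) and 8 frozen reads (0 to 25). No near copy was found for Defb46, Gm10573, Esp24, Iapp and Lce3a.

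Turned round, 54 of the 1313 genes with a near copy had at most 2 frozen reads (4.11%), against 28 of 17145 genes without one (0.163%). The 54 take in the 20 members with a near copy and the 25 left-out Vmn1r genes with a promoter, all 25 of which had a near copy, so this is the same observation seen from the other side. The promoters of the members were poor in CG pairs, with a median of 1 in 300 bases and a range of 0 to 7. The median was 14 over all genes, 3 over the genes in the same FFPE range and 1 over olfactory and vomeronasal type 2 receptor genes. At least 10 CG pairs were found in none of the 25 members, against 58.8% of all genes and 16.1% of the genes in the same FFPE range. Across genes with a promoter, the summed FFPE level over the frozen level was 1.35 without a CG pair and 0.752 with 20 or more. The ratio of FFPE to frozen reads thus fell across these genes as CG content rose. The part of CG content in the members' reads was not tested.

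**Figure D5:**
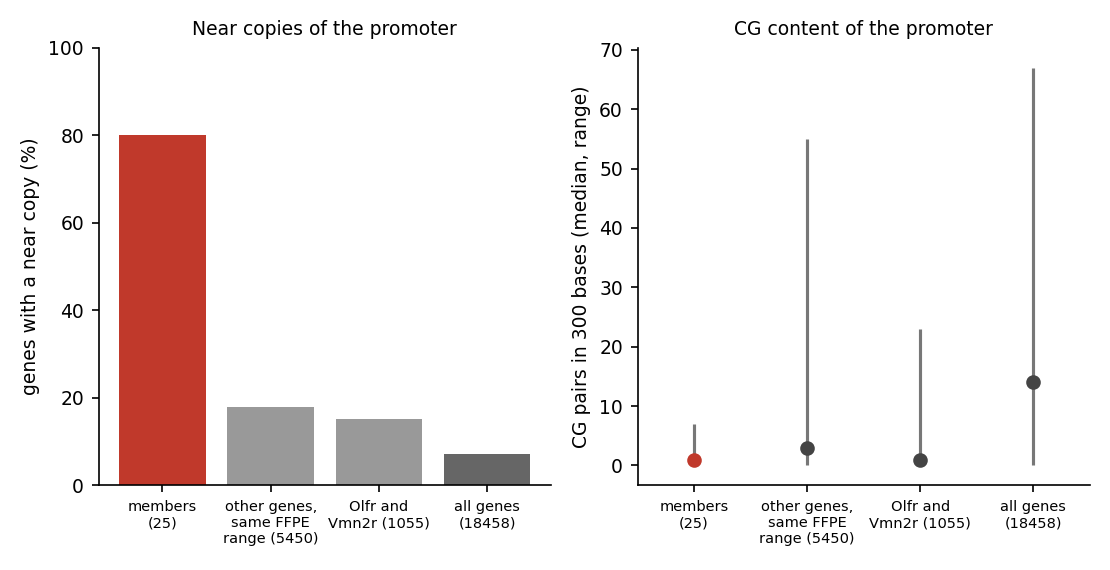
Left, percent of genes whose promoter has a near copy elsewhere (at least 90% identity over at least 80% of the bases): 80% of 25 members, 17.8% of other genes in the same FFPE range, 15.1% of Olfr and Vmn2r genes and 7.11% of all genes. Right, CG pairs in 300 bases of the promoter, as median (point) and range (line), with medians of 1, 3, 1 and 14.

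Organ differences were the comparison of the design that the choice did not use directly, although a high organ helps a gene to reach 30 FFPE reads. Each organ (1 FFPE and 1 frozen library) was compared with the mean of the 3 others in a limma linear model with organ and preservation as terms, over 25680 genes with a mean log2 value of at least 0. Only 18 of the 107 members passed that filter on low values. None of the 18 passed at an adjusted p under 0.05 (Benjamini-Hochberg) in any organ, and none had an unadjusted p under 0.05. Over all genes, 10.1% were called in brain, 2.57% in heart, 1.21% in kidney and 9.96% in liver. Without the filter all 107 were tested, none passed, and 1 to 5 members per organ had an unadjusted p under 0.05. In the frozen libraries a member's values are set by 0 to 2 reads and by the 0.5 reads added before the log, which limits what the test can see.

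The member nearest to the threshold was Gm10668 in liver. Its deposited log2 value was higher in liver than in the other organs by 1.40 ± 0.72 (SE; 2 liver and 6 other libraries), with an adjusted p of 0.282 by limma. In this gene FFPE liver had 50 reads, against 25 to 39 in the other FFPE organs, and frozen liver had 2, against 0. The difference takes in both libraries of the organ, and its frozen part rests on those 2 reads, which the choice capped. Gm12814, a pseudogene of 33556 bases on chromosome 4, was higher in brain by 1.31 ± 0.79, with an adjusted p of 0.417 by limma. It had 30, 14, 27 and 14 reads in FFPE brain, heart, kidney and liver, against 2, 0, 0 and 0 in the frozen organs. Here too the frozen part of the difference rests on 2 reads in the named organ. Lce3a had a difference of -1.38 ± 0.87 in liver, with an adjusted p of 0.395 by limma.

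Within FFPE tissue, the members summed to 332 CPM in brain (95% counting interval 316 to 348), 242 in heart (225 to 259), 314 in kidney (300 to 329) and 292 in liver (276 to 309). With 1 library per organ this ordering has no replicate check. The interval of heart lay below those of the other organs, but it takes in counting error alone. The choice summed these same FFPE reads without scaling for depth, so the deeper libraries weighed more in it. The order of organs is thus not independent of the choice. FFPE heart was the lowest of the 4 FFPE libraries for 50 members (46.7%), against 34.6% of 8736 genes that were not members and had FFPE sums in the same range. FFPE heart was also the library with the fewest reads of the 4. Those other genes had a median of 18 reads there, against 5 for members, so the shares are not matched for read number. Brain was the highest FFPE library for 38 members (35.5%), against 28.9% of those other genes, and kidney for 33 (30.8%), against 21.2%. Liver was the highest for 23 (21.5%), against 27.9%, and heart for 13 (12.1%), against 22.0%. In frozen tissue the members summed to 24.1 CPM in brain, 16.9 in heart, 13.98 in kidney and 13.3 in liver.

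The receptors of nasal sensory neurons, listed as genes not expected to be active in the 4 organs, were ordered in a like way in FFPE tissue. The 1253 olfactory and vomeronasal type 2 receptor genes summed to 7583, 5501, 6264 and 5906 CPM in FFPE brain, heart, kidney and liver. In frozen tissue they summed to 3675, 3601, 4569 and 3626 CPM in the same order of organs. Brain was the highest and heart the lowest FFPE library for the members and for these receptors.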

How the data were processed

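The authors deposited log2 values per gene, 1 column per organ and preservation, taken as H3K4m3 from the titles. Per the submitters' processing notes, Bowtie2, featureCounts, limma and build mm10 were used; tool versions and the counted part of each gene are not stated. Each deposited value is the log2 of the reads plus 0.5, divided by a scaled library size, so whole reads were recovered (100% of values within 0.001) and summed. No count model was used on them. The columns name neither antibody nor replicate, so input libraries were not analysed here. The p-values take their spread from how far organ differences in the FFPE and frozen libraries disagreed, not from replicates of a group. Genes were matched to RefSeq (GRCm38.p6) by gene ID, 25275 of 27179. Members, families and lists were chosen with earlier results of these data known. Organ contrasts used limma 3.58.1 in R 4.3.3 with an intensity trend (3 residual degrees of freedom), and were tested on simulated data. Promoters were compared with blastn 2.17.0. Neighbours were chained at 500 kb. Ratios on 1 or 2 frozen reads have exact 95% binomial intervals. Python 3.11.15 was used elsewhere. Named genes were the 10 members with the highest FFPE sum (1 of them has no symbol and is left unnamed), the 2 highest of each family or cluster of at least 3, any that passed an organ test, those nearest the limits, and the 3 most alike promoter pairs; the rest were named as members of a family or place described, after their values were seen. Alternatives changed the limits, chaining, copy definition, normalization, filter and libraries.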

Additional observations from a re-analysis of the deposited data

How the results depend on the processing

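The 107 members rest on thresholds in low counts. With a frozen sum of 0 there were 14 members, with at most 5 there were 332, with an FFPE sum of at least 20 there were 170, with at least 50 there were 39, and with the FFPE sum scaled to the frozen depth there were 19. Leaving out 1 library at unchanged limits gave between 50 and 218 members, by construction more without a frozen library (215 without frozen brain, 169 without frozen heart, 218 without frozen kidney, 192 without frozen liver) and fewer without an FFPE library (60 without FFPE brain, 84 without FFPE heart, 50 without FFPE kidney, 72 without FFPE liver). Against 33 clustered members, chaining within 200 kb gave 19 and within 1000 kb 36. With a frozen sum of 0 there were 2 clustered members and with an FFPE sum of at least 50 there were 6, since fewer genes entered. Near copies of the promoter were found for 20 members at 95% identity, 23 at 80% identity and 21 at 50% of the bases, against 20 as reported. In each of 52 organ comparisons (13 alternatives in 4 organs) 0 members passed in limma, with at most 5 at an unadjusted p under 0.05. Protein copies were not run, as no protein table was used here. No paired analysis was possible because the columns carry no replicate numbers; organ and preservation were both terms of the organ model. Depth sets the limit: 0 to 2 frozen reads cannot separate members from genes with 3 to 5, and reads of near-identical copies may be shared or lost, which was not tested.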
